A study of Arabidopsis thaliana with 12 samples.

Results

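The genes described here are the 656 unique loci in the study's tables of genes changed by spaceflight in leaves (608 loci) and in roots (65 loci), with 17 loci in both tables. The numbers are those of the tables used here and not of all genes the study may have found changed. The genes are described in the plants that stayed on the ground. All 656 loci were taken, and each was compared between the leaf and the root of the same ground control plates. The plants were Arabidopsis thaliana of the WS (Wassilewskija) ecotype, 11 days old, unmutated and untreated, on agar-like plates in a ground copy of the Veggie growth unit at Kennedy Space Center, under constant LED light. The groups are ground control leaf (3 libraries) and ground control root (3 libraries), and the matching 6 spaceflight libraries are used only for values set beside those of the ground. A plate was the biological replicate, 3 plants of a plate were pooled, and leaf and root were cut from the same plants after preservation, with the hypocotyl set aside. The sources differ on whether the root sample is the dissected root or its tip, and some organ fields of the labels call the leaf libraries roots, so the organ was taken from the sample titles and checked against marker genes. Because a locus entered the list only through a spaceflight difference in which the same ground libraries were used, the list is not a sample of the genome, and the shares below describe listed genes only.

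Leaves and roots of a seedling differ in most of what they do. Leaf mesophyll carries chloroplasts, in which light-harvesting complexes feed the photosystems, and its surface carries wax and stomata. Roots take up nitrate, potassium and water through an epidermis with hairs, guide solutes inward past the Casparian strip of the endodermis, and build walls with extensins and class III peroxidases. Each library pools the cells of its sample, so that fewer cells of a type and less RNA per cell cannot be told apart.

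The transcripts of the photosynthetic apparatus matched the organ named in the titles. LHCB1.2 (AT1G29910), which encodes a chlorophyll-binding protein of the main light-harvesting complex, had 9418, 12981 and 11518 FPKM (a read level scaled to transcript length and to the mapped total of the library) in the 3 leaf libraries and 76.9, 76.1 and 69.4 FPKM in the 3 root libraries. BGLU21 (AT1G66270), a beta-glucosidase of the root, had 0.65, 0.34 and 0.42 FPKM in leaf and 968, 832 and 762 FPKM in root. No leaf library overlapped a root library for either gene. Summed over the 6 leaf marker genes, all of which were listed, the leaf libraries held 15200 to 19600 FPKM and the root libraries 135 to 146 FPKM. Only 2 of 11 root marker genes were listed, BGLU21 and the nitrate transporter NRT2.5. They summed to 762 to 968 FPKM in root and 1.78 to 2.53 FPKM in leaf. The root sum was nearly all BGLU21, and NRT2.5, given below, was higher in leaf. The defining Casparian strip gene CASP1 and the shoot apex gene STM are not among the listed genes and were not analysed here. Some genes taken as markers went against the organ they had been assigned to, and the assignments themselves were not tested. CP12-3, a small regulator of the Calvin cycle, was higher in root by 1.07 ± 0.28 on the log2 scale (SE, 3 plates; limma adjusted p = 0.0076), although without plate 1 the difference was -0.76 (adjusted p = 0.060) and without plate 3 it was -0.96 (adjusted p = 0.083). NRT2.5 had 1.19, 1.44 and 2.11 FPKM in leaf and 0, 0.03 and 0 FPKM in root. Of the guard cell anion channels, ALMT12 was level at 2.78 to 3.86 FPKM in leaf and 4.28 to 4.84 FPKM in root, and SLAH3 was higher in root (11.6, 11.6 and 15.3 against 47.1, 46.2 and 49.2 FPKM).

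Most listed genes were unequal between the organs before any flight. By limma on log2(FPKM + 1) with the plate as a block, 296 of 656 genes were higher in root and 160 were higher in leaf, at a Benjamini-Hochberg adjusted p below 0.05 and a difference of 2-fold or more on this scale (45.1% and 24.4% of the genes tested). A further 117 genes (17.8%) were level, which means that the 95% interval of the difference lay within 2-fold and both organs averaged at least 1 FPKM, and 83 genes fell in no class. Past a 4-fold difference were 198 root genes and 106 leaf genes, and past 16-fold were 55 and 38. The median difference over all genes was -0.61 (leaf minus root, log2), with a middle range from -2.36 to 0.97. The leaf and root groups did not overlap for 547 genes. All differences are on the log2(FPKM + 1) scale, which understates the difference of genes with low values.

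**Figure D1:**
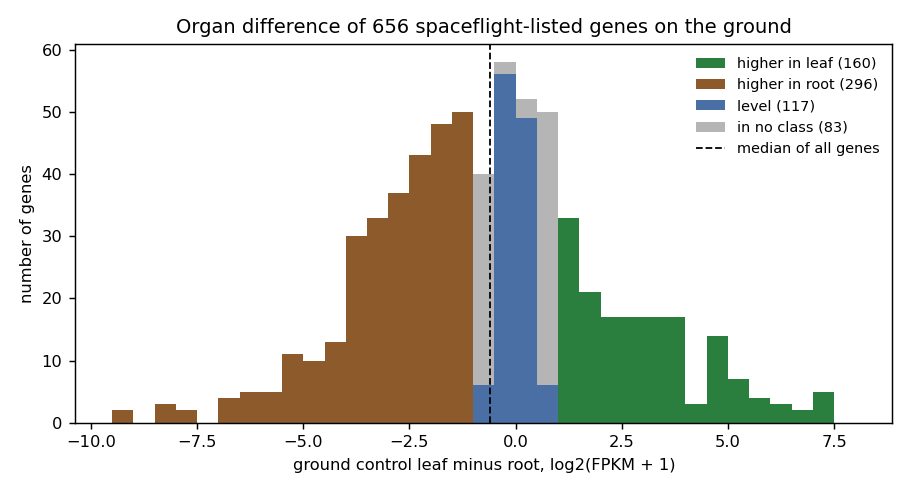
Histogram of the ground control leaf minus root difference in log2(FPKM + 1) over 656 genes, in bins of 0.5, coloured by class; the dashed line is the median of all genes. The 296 genes higher in root reach -9.33 and the 160 genes higher in leaf reach 7.42, and the 117 level genes lie around 0.

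The share of root genes depends on the scale. When the libraries were set to the same median over the listed genes, every difference moved towards leaf by 0.88, and 244 genes were higher in leaf and 206 in root, so that leaf genes made up 54.2% of the calls in place of 35.1%. A shift of 0.88 is too small to turn a 2-fold call in 1 organ into a call in the other. The absence of reversed calls was therefore fixed in advance and says nothing of how firm the directions are. Of the 456 calls, 366 were made under both scales. The order of genes from leaf to root does not change with such a shift, and FPKM was kept because it is scaled to the whole library and not to the listed genes. It has a limit of its own, since very abundant transcripts of 1 organ lower the FPKM of its other genes. The 6 leaf marker genes alone summed to 15200 to 19600 FPKM in leaf and 135 to 146 FPKM in root. How far this moved the counts of leaf and root genes was not tested, and neither scale is known to be right.

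The root libraries were closer to each other than the leaf libraries. The Pearson correlation across the 656 genes was 0.984 to 0.992 between root libraries, 0.958 to 0.971 between leaf libraries and 0.133 to 0.188 between a leaf and a root library (across genes, which are not independent replicates). The median SD of log2(FPKM + 1) was 0.281 in leaf and 0.135 in root, and it was larger in leaf for 507 of 656 genes.

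Genes listed for leaves and genes listed for roots differed in their organ bias on the ground. Of the 591 genes of the leaf table alone, 276 were higher in root (46.7%) and 126 higher in leaf (21.3%), with a median difference of -0.75. Of the 48 genes of the root table alone, 18 were higher in root (37.5%) and 25 higher in leaf (52.1%), with a median of 1.48. Of the 17 genes in both tables, 2 were higher in root, 9 in leaf and 3 were level. For the genes of the leaf table the direction rests on the scale: with centred libraries 203 were higher in leaf and 188 in root, with a median of 0.13, while those of the root table alone were 28 and 18, with a median of 2.36. These shares were not compared by a test, since the authors' filter and the same ground libraries decided which genes are in each table.

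The 10 largest leaf differences were those of GASA9, AT5G42530, LHCB2.2, PDF1.2A, LHCB1.2, LHCB4.2, PSAD2, PCC1, AT4G38840 and PDF1.2C. GASA9, a gibberellin-regulated small secreted protein on chromosome 1 (8027126 to 8028168, TAIR10.1), had 212, 183 and 221 FPKM in leaf and 0.51, 0 and 0.15 FPKM in root, a difference of 7.42 ± 0.17 (SE; limma adjusted p = 2.7e-08). LHCB2.2, of the light-harvesting antenna of photosystem II (chromosome 2, 1799234 to 1800472), had 2202, 2536 and 2421 FPKM in leaf and 17.5, 12.9 and 11.7 FPKM in root. AT5G42530, an uncharacterized protein gene listed in both tables (chromosome 5, 17004738 to 17005510), had 1757, 1888 and 1851 FPKM in leaf and 7.86, 11.1 and 11.8 FPKM in root, 179 times more in leaf by the group means. For all 10 genes every leaf library was above every root library.

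The defence genes among these 10 were at or near 0 in root. PDF1.2A, a plant defensin of the jasmonate and ethylene response, had 160, 184 and 230 FPKM in leaf and was listed at 0, 0 and 0.68 FPKM in root. Its neighbour PDF1.2C (both on chromosome 5, 17906968 to 17907638 and 17908850 to 17909507) had 92.6, 83.8 and 111 FPKM in leaf and at most 0.91 FPKM in root. PCC1, a gene under both circadian and pathogen control, had 143, 102 and 102 FPKM in leaf and at most 0.77 FPKM in root. AT4G38840, a SAUR gene of the early auxin response, was the least even of the set, with 173, 85.2 and 157 FPKM in leaf and 0, 0.61 and 2.23 FPKM in root. LHCB1.2, LHCB2.2, PSAD2 and the defensin pair have near-identical copies elsewhere in the genome, so how reads were divided within each family is uncertain, and PSAD2 also overlaps AT1G03140 on the same strand.

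**Figure D2:**
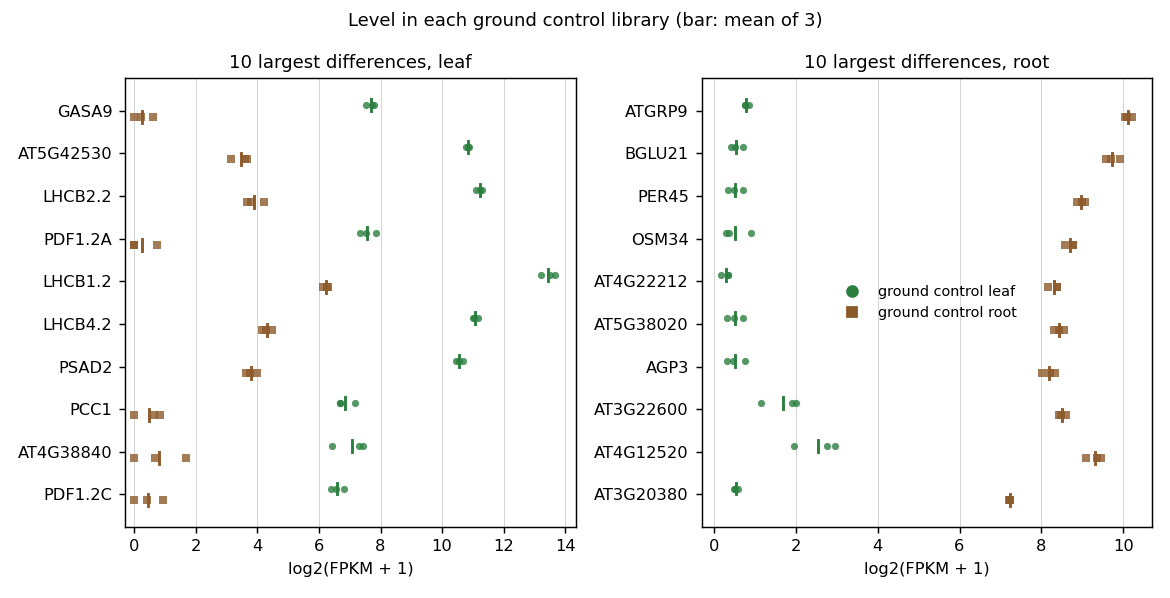
Level in each ground control library, as log2(FPKM + 1), of the 10 genes with the largest difference towards leaf (left) and towards root (right); circles are leaf libraries, squares root libraries and bars the mean of 3. In each of the 20 genes the leaf and root libraries stand apart, with fitted differences of 6.14 to 7.42 in the left panel and -9.33 to -6.69 in the right.

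The largest root differences exceeded those of leaf. ATGRP9, a glycine-rich protein gene (chromosome 2, 1993038 to 1994177), had 0.81, 0.68 and 0.69 FPKM in leaf and 1061, 1096 and 1185 FPKM in root, a difference of -9.33 ± 0.16 (SE; limma adjusted p = 1.8e-08). BGLU21, given above, followed with -9.18 ± 0.16, and its close copy BGLU22 is not among the listed genes. PER45, a class III peroxidase (chromosome 4, 14762819 to 14764636), had 0.28, 0.41 and 0.64 FPKM in leaf and 511, 536 and 467 FPKM in root. OSM34, an osmotin of the thaumatin family, had 0.23, 0.29 and 0.88 FPKM in leaf and 383, 433 and 435 FPKM in root. AGP3, an arabinogalactan protein of the wall, had 0.38, 0.24 and 0.69 FPKM in leaf and 295, 260 and 319 FPKM in root. The other 5 were the defensin-like AT4G22212, the methyltransferase AT5G38020, the lipid transfer proteins AT3G22600 and AT4G12520, and the TRAF-like AT3G20380, with differences of -8.03, -7.92, -6.82, -6.75 and -6.69. All of these root genes entered the list through leaves, where each was below 7 FPKM on the ground.

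A smaller set was all but restricted to 1 organ, with at least 1 FPKM in every library of it and under 0.1 FPKM in every library of the other. There were 17 such leaf genes and 8 such root genes. Genes this close to 0 in 1 organ could pass the authors' filter through the other organ alone, so the sets depend on that filter. The leaf set held BHLH63, a light-signalling factor that interacts with cryptochrome (24.5, 27.3 and 19.7 FPKM in leaf, 0 in all 3 root libraries), the neighbouring ion channel genes CNGC11 (6.24 to 9.68 FPKM in leaf, at most 0.05 in root) and CNGC12 (7.28 to 9.01 FPKM in leaf, at most 0.06 in root), and the squalene epoxidase SQE5, which varied from 6.58 to 40.0 FPKM among leaf plates. The root set held 4 cytochromes P450 (CYP76G1, CYP93D1, CYP712A2 and CYP716A2), the glycosyltransferase UGT83A1, the peroxidase PER10, the dioxygenase AT1G15540 and ICL, the isocitrate lyase of the glyoxylate cycle. CYP716A2, an oxidase of triterpenes, was listed at 0 in all 3 leaf libraries and at 16.4, 22.4 and 18.4 FPKM in root. All of the root set but ICL and PER10 had at least 8 FPKM in every root library.

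The 8 level genes with the highest mean were HSP90-3, HSP90-2, HEL, AT1G56220, FKBP62, AT3G07090, GSTU17 and ATJ8. HSP90-3, a cytosolic chaperone, had 494, 301 and 398 FPKM in leaf and 354, 286 and 356 FPKM in root, a difference of 0.24 ± 0.17 (SE; limma adjusted p = 0.23). HEL, the chitin-binding pathogenesis-related protein PR4, had 162, 217 and 233 FPKM in leaf and 218, 259 and 241 FPKM in root. AT1G56220, a dormancy and auxin associated protein gene, had 127, 241 and 223 FPKM in leaf and 186, 181 and 176 FPKM in root. The level gene closest to 0 was AT1G14890, a pectin methylesterase inhibitor family gene, at 0.01 ± 0.19, with 21.7, 26.4 and 25.7 FPKM in leaf and 26.0, 19.2 and 29.1 FPKM in root. HSP90-2 and HSP90-3 are close copies, and the division of reads between them is uncertain. Being level also rests on the scale. Centring the libraries moved these differences towards leaf like all others, so a gene level here need not be level on that scale.

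Listed genes were grouped by family and known role, from the leaf end to the root end. Counts below are of members called higher in leaf, higher in root or level, to be read against 24.4%, 45.1% and 17.8% of all listed genes. The lists were drawn up with results for these genes already known, and no list was tested as a set. Centring on the listed genes moved every list median by 0.88 and turned its sign in 10 of 31 lists with 3 or more members: nitrogen and potassium uptake, sugar starvation, jasmonate, WRKY, AP2/ERF, UDP-glycosyltransferases, RING-H2 ligases, aquaporins, lipid transfer and auxin.

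**Figure D3:**
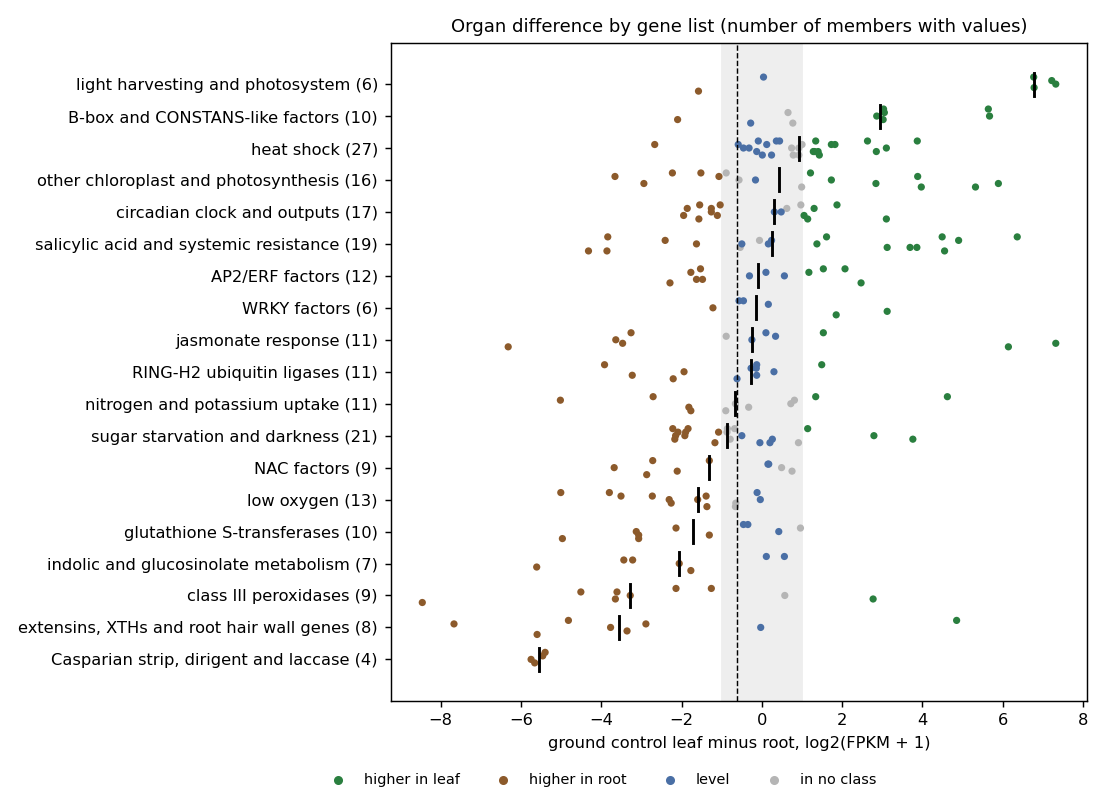
Ground control leaf minus root difference in log2(FPKM + 1) of each member of 19 gene lists, coloured by class; the number of members is in brackets, black bars are list medians, the dashed line is the median of all 656 genes and the shaded band is less than 2-fold. List medians run from 6.77 for light harvesting to -5.56 for the Casparian strip, dirigent and laccase list.

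Light harvesting was the most leaf-biased list, with 4 of 6 members higher in leaf, 1 higher in root, 1 level and a median of 6.77. The 4 were LHCB2.2, LHCB1.2, LHCB4.2 and PSAD2, the last a subunit of photosystem I, and with centred libraries 4 were higher in leaf and 0 in root. LHCB4.2 had 2058, 2311 and 2118 FPKM in leaf and 16.7, 18.3 and 21.1 FPKM in root. The early light-induced proteins, which are thought to bind chlorophyll under light stress, did not follow them. ELIP1 had 57.9, 23.9 and 21.3 FPKM in leaf and 105, 87.6 and 91.4 FPKM in root, a difference of -1.58 ± 0.25 (SE; limma adjusted p = 0.00050), although it was below 2-fold (-0.70) under centring. ELIP2 was level at 93.2, 44.0 and 33.7 FPKM in leaf against 54.8, 47.3 and 49.3 FPKM in root (0.04 ± 0.25). In leaf, plate 1 was the highest for both ELIP genes, and ELIP2 was at 0.33 without plate 3 and at 0.92 under centring.

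The list of other chloroplast and photosynthesis genes was divided, with 7 of 16 higher in leaf, 5 higher in root and 1 level. Its median was 0.41. This division rests in part on the scale: with centred libraries 8 were higher in leaf and 3 in root (median 1.29). The 5 members higher in root, CP12-3 and EDS5 among them, were at -1.07 to -3.66. GLK1, the transcription factor that switches on photosynthesis genes, had 123, 104 and 135 FPKM in leaf and 0.94, 1.19 and 1.00 FPKM in root, 115 times more by the means. GBSS1, the granule-bound starch synthase, had 167, 69.0 and 74.9 FPKM in leaf and 1.1 to 1.68 FPKM in root. AT4G04020, a plastid fibrillin family gene, averaged 273 FPKM in leaf and 15.9 in root. GPX7, a glutathione peroxidase of the plastid, averaged 17.6 and 0.217 FPKM.

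The B-box and CONSTANS-like factors, zinc finger regulators of light and flowering responses, were also leaf-biased: 6 of 10 were higher in leaf, 1 higher in root and 1 level, with a median of 2.94. COL6 had 72.6, 83.0 and 64.1 FPKM in leaf and 0.26, 0.52 and 0.60 FPKM in root. COL16 had 139, 107 and 113 FPKM in leaf and 1.46, 1.33 and 1.40 FPKM in root. COL8 and BBX32 differed by 3.05 ± 0.17 and 3.03 ± 0.29. BBX20 was the member higher in root (-2.10, means 1.36 FPKM in leaf and 9.04 FPKM in root).

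Most heat shock genes were higher in leaf or level. Of 27 listed, 11 were higher in leaf, 10 level and 1 higher in root, with a median of 0.92. HSP17.8, a small heat shock protein of the cytosol, had 119, 65.5 and 44.0 FPKM in leaf and 3.65, 4.21 and 3.76 FPKM in root, a difference of 3.87 ± 0.27 (SE; limma adjusted p = 4.2e-06). HSP17.4B had 65.0, 27.1 and 24.4 FPKM in leaf and 2.94 to 3.76 FPKM in root. HSFA2, the heat stress transcription factor that sustains the response, had 44.0, 21.4 and 19.5 FPKM in leaf and 2.27, 2.60 and 3.62 FPKM in root. HSFA6B, another heat stress factor, went the other way, with 0.33, 0.48 and 0.18 FPKM in leaf and 6.48, 11.7 and 5.26 FPKM in root (-2.67 ± 0.19). Plate 1 was the highest leaf library for 24 of the 27 genes and the highest root library for 4, against 182 and 183 of all 656 genes, and its part in the leaf values was not tested. Without plate 1, 10 heat shock genes were higher in leaf and 1 in root. Without plate 2 it was 14 and 1, and with centred libraries 19 and 1.

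Clock genes were split between the organs. Of 17 members, 5 were higher in leaf, 8 higher in root and 2 level, with a median of 0.31. AT3G44450, placed in this list as a possible output gene, had 70.6, 75.3 and 77.1 FPKM in leaf and 8.47, 7.03 and 7.83 FPKM in root. CDF1, a DOF repressor of flowering genes, had 25, 27.8 and 26.7 FPKM in leaf and 7.03, 7.43 and 5.20 FPKM in root. JMJD5, a histone demethylase family member of the clock, had 6.48, 5.43 and 10.7 FPKM in leaf and 30.8, 28.6 and 33.2 FPKM in root. AT3G52740 averaged 26.1 FPKM in leaf and 95.8 FPKM in root, and RVE2, a MYB-like clock factor, had 31.7, 30.4 and 19.0 FPKM in leaf and 63.7, 62.8 and 66.9 FPKM in root. The pseudo-response regulators APRR9 and APRR7, which repress morning genes, were level (8.35 to 16.2 against 9.63 to 9.83 FPKM) and higher in leaf (1.05 ± 0.24), the latter by 0.76 and no longer 2-fold without plate 3. This split rests on the scale: with centred libraries 9 members were higher in leaf and 1 in root.

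**Figure D4:**
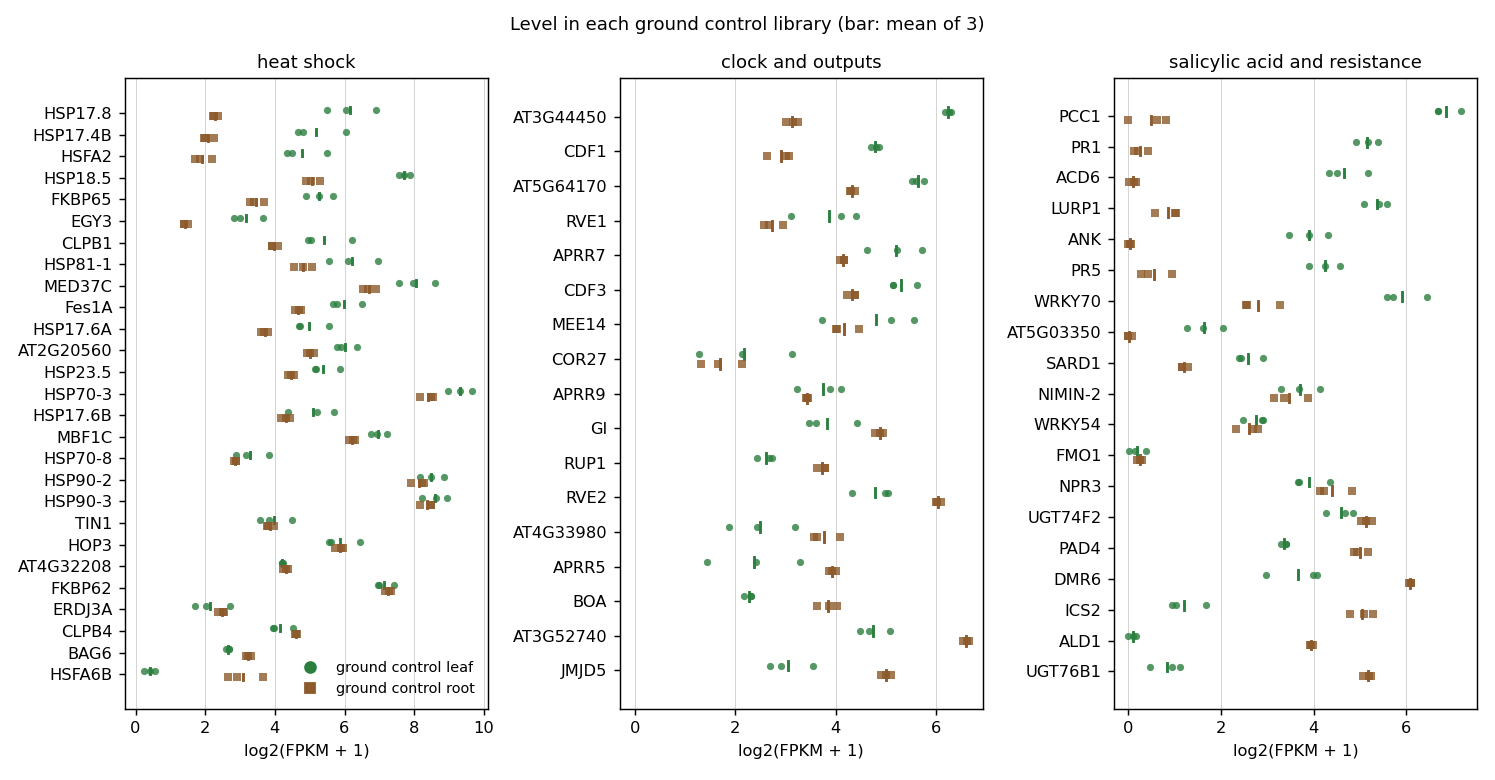
Level in each ground control library, as log2(FPKM + 1), of the listed heat shock genes (27), clock genes (17) and salicylic acid and resistance genes (19), ordered from leaf-biased to root-biased; circles are leaf, squares root and bars the mean of 3. HSP17.8, AT3G44450 and PCC1 lead the panels and HSFA6B, JMJD5 and UGT76B1 end them, with leaf and root libraries apart at both ends and overlapping in the middle.

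Short promoter windows are shown for members of the lists and for ATGRP9, which is in no list and has the largest root difference. They were chosen because they hold a searched motif and are higher in leaf, level or higher in root. Each runs from 250 bases before to 50 after the annotated gene start in RefSeq TAIR10.1, the Columbia reference and not WS, and is written 5′ to 3′ on the gene's strand with matches in capitals. The 5 motifs searched on both strands were the G-box CACGTG, the I-box GATAAG, the evening element AAAATATCT of clock-regulated genes, the W-box TTGACC and the heat shock element GAANNTTC, in which N is any base. None of the capitals below belongs to more than 1 motif. LHCB4.2 (chr3:2717307-2717606, plus strand) holds an I-box 9 bases before the start and HSFA2 (chr2:11135374-11135673, plus) a G-box and 3 heat shock elements, and both are higher in leaf. ATGRP9 (chr2:1992788-1993087, plus) holds an I-box and AGP3 (chr4:18581647-18581946, minus) a W-box, and both are higher in root. JMJD5 (chr3:7275395-7275694, plus), higher in root, holds 2 evening elements and the level APRR9 (chr2:19232357-19232656, plus) 1, with 2 G-boxes. The evening elements of JMJD5 and APRR9 and the last heat shock element of HSFA2 lie after the annotated start.
LHCB4.2: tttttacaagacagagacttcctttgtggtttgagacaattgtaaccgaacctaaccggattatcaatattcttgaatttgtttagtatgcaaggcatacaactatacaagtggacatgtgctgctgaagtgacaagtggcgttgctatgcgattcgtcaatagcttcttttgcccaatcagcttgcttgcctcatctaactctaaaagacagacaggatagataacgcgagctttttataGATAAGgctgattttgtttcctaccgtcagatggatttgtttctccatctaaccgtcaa
HSFA2: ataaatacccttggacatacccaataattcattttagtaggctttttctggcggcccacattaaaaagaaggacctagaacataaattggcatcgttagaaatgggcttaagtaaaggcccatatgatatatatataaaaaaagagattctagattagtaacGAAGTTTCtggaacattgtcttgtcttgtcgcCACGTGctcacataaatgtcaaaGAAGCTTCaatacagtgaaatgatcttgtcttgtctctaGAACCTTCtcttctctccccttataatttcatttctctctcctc
ATGRP9: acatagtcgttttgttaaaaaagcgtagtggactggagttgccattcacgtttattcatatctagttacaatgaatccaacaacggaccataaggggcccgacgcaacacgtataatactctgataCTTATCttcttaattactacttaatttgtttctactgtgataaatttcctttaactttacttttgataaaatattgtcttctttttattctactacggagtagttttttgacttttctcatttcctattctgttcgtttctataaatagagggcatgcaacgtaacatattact
AGP3: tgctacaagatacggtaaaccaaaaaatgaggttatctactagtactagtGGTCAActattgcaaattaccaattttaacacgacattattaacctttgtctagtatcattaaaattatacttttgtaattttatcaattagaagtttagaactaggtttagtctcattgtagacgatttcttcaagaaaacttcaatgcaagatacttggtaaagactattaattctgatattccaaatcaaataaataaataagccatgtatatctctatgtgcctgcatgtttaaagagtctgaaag
JMJD5: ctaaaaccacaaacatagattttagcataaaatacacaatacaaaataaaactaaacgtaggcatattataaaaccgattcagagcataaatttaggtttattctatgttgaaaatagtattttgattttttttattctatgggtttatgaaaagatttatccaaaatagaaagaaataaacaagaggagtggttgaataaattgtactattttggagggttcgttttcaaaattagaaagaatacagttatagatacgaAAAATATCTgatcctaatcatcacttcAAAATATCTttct
APRR9: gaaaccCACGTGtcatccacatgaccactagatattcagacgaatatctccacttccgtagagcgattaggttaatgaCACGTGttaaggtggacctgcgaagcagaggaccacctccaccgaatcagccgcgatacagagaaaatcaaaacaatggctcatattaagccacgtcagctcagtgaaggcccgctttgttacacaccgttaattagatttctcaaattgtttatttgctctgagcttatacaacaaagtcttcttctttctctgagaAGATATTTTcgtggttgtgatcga

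The motif shares are a description of these windows. The I-box was in 23.6% of 157 windows of genes higher in leaf, 17.5% of 292 windows of genes higher in root, 25.6% of 117 windows of level genes and 14.6% of all 27443 protein-coding windows. In the same order, the evening element was in 7.01%, 5.82%, 4.27% and 2.82%, and the heat shock element in 19.7%, 16.4%, 13.7% and 11.6%. The G-box was in 8.28%, 7.53%, 15.4% and 7.68%, and the W-box in 10.2%, 16.8%, 20.5% and 14.2%. Within the clock list 7 of 17 windows (41.2%) held the evening element, of which 4 belonged to genes higher in root, 2 to level genes, 1 to a gene in no class and 0 to the 5 genes higher in leaf. This division by class rests on the scale, since with centred libraries 9 clock members were higher in leaf and 1 in root. Within the heat shock list 6 of 27 windows (22.2%) held the heat shock element, 3 of them of genes higher in leaf, 2 of level genes and 1 of a gene in no class. Over the 648 windows of all listed genes, the evening element was in 6.02% and the heat shock element in 16.8%.

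The salicylic acid and systemic resistance list was pulled to both ends, with 9 of 19 members higher in leaf, 5 higher in root and 3 level (median 0.24). On the leaf side, PR1, a secreted pathogenesis-related protein, had 41.2, 29.3 and 34.8 FPKM in leaf and 0.09, 0.35 and 0.16 FPKM in root, a difference of 4.90 ± 0.20 (SE; limma adjusted p = 2.4e-07). ACD6, an ankyrin protein that promotes cell death and salicylic acid signalling, had 35.1, 19.1 and 21.6 FPKM in leaf and at most 0.13 FPKM in root, and LURP1, a gene induced with downy mildew, 47.0, 33.1 and 41.3 FPKM in leaf and at most 1.04 FPKM in root. WRKY70, a factor between salicylic acid and jasmonate signalling, had 51.2, 86.2 and 47.1 FPKM in leaf and 4.95, 8.74 and 4.81 FPKM in root, and plate 2 was the highest in both organs. On the root side, ALD1, the aminotransferase that starts pipecolic acid synthesis, had 0.13, 0 and 0.08 FPKM in leaf and 14.8, 14.5 and 14.2 FPKM in root (-3.86). UGT76B1, which glucosylates resistance signals, had 0.93, 1.18 and 0.38 FPKM in leaf and 32.7, 36.5 and 35.4 FPKM in root (-4.32). EDS5, which exports salicylic acid from the chloroplast and was counted with the chloroplast genes, had 1.64, 1.19 and 1.21 FPKM in leaf and 16.3, 18.5 and 16.2 FPKM in root. ICS2, the lesser isochorismate synthase of salicylic acid synthesis, averaged 1.39 FPKM in leaf and 32.5 FPKM in root, with an antisense locus, AT1G18871, across it. The counts were 9 and 5 without each plate in turn, and 11 and 4 with centred libraries.

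Of 11 members of the jasmonate list, 3 were higher in leaf, 4 higher in root and 3 level, from 7.32 for PDF1.2A to -6.32 for AT4G11320. Against the leaf-biased defensins stood AT4G11320, a papain-like cysteine protease, with 8.71, 9.66 and 14.2 FPKM in leaf and 868, 1014 and 913 FPKM in root (-6.32 ± 0.19), and VSP1, a vegetative storage protein, with 10.7, 11.7 and 24.9 FPKM in leaf and 173, 199.7 and 213 FPKM in root.

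Of 13 genes of the low oxygen response, 9 were higher in root, 0 in leaf, 2 level and 2 in no class, with a median of -1.60. PDC1, the pyruvate decarboxylase of ethanol fermentation, had 0.27, 0.11 and 0.13 FPKM in leaf and 10.2, 20.1 and 17.5 FPKM in root, a difference of -3.80 ± 0.24 (SE; limma adjusted p = 2.0e-06). AT1G19530, of the same list, had 0.35, 0.45 and 0.87 FPKM in leaf and 41.5, 54.4 and 50.5 FPKM in root. S-ACP-DES6, a fatty acid desaturase of the plastid, averaged 1.89 and 32.0 FPKM. PCO1, a cysteine oxidase that marks the oxygen-sensing ERF factors for decay, averaged 2.13 FPKM in leaf and 19.9 FPKM in root. The level AT3G10020 (68.3, 110 and 106 against 103, 102 and 98.6 FPKM) and the root-higher AT3G10040 (1.91, 4.21 and 2.65 against 6.89, 9.65 and 10.8 FPKM) lie within 8 kb of each other on chromosome 3. With centred libraries 6 members were higher in root and 0 in leaf.

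Of 21 sugar starvation and darkness genes, 9 were higher in root (42.9%, against 45.1% of all listed genes), 3 higher in leaf and 4 level (median -0.86), and 6 were higher in each organ with centred libraries. ASN1, the asparagine synthetase of carbon-starved tissue, had 1.09, 1.57 and 3.67 FPKM in leaf and 13.9, 12.1 and 12.1 FPKM in root. TPS10, a trehalose phosphate synthase family member, averaged 7.13 FPKM in leaf and 35.5 FPKM in root. STR15, the senescence gene SEN1, had 20.5, 29.3 and 27.3 FPKM in leaf and 1.07, 1.18 and 0.64 FPKM in root. SKIP20, a Kelch repeat F-box protein listed in both tables, had 44.4, 52.2 and 59.1 FPKM in leaf and 6.74, 7.93 and 5.39 FPKM in root. Plate 2 was the highest root library for 17 of the 21 genes and the highest leaf library for 14, against 345 and 283 of all 656 genes.

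Among wall genes, in the Casparian strip, dirigent and laccase list all 4 listed members were higher in root, with differences between -5.75 and -5.40: the Casparian strip protein family gene AT4G15610, the dirigent genes DIR16 and DIR24, which guide the coupling of lignan and lignin units, and PRR2, a pinoresinol reductase of lignan synthesis. PRR2 had 0.59, 0.91 and 1.43 FPKM in leaf and 100, 106 and 106 FPKM in root. Of 9 class III peroxidases, 7 were higher in root and 1 in leaf (median -3.28). PER59 had 0.03, 0.07 and 0.16 FPKM in leaf and 14.3, 32.5 and 28.7 FPKM in root, and plate 1 was the lowest in both organs. PER37 had 18.4, 26.0 and 19.3 FPKM in leaf and 257, 270 and 301 FPKM in root, and PER70 was the leaf-biased member, with 14.7, 24.2 and 15.2 FPKM in leaf and 1.62, 1.17 and 2.58 FPKM in root.

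Of 8 extensin, XTH and root hair wall genes, 6 were higher in root, 1 higher in leaf and 1 level (median -3.56). EXT3, an extensin of the growing wall, was among the most abundant listed transcripts in root, with 158, 169 and 157 FPKM in leaf and 4285, 4981 and 4514 FPKM in root (-4.82 ± 0.16). PME17, a pectin methylesterase, had 0.27, 0.11 and 0.06 FPKM in leaf and 51.7, 58.7 and 52.9 FPKM in root. EXPA5, an expansin that loosens walls, was the leaf-biased member, with 33.9, 28.5 and 33.9 FPKM in leaf and 0.11, 0.08 and 0.24 FPKM in root. The pectin modification list was on neither side, with 3 of 7 higher in root, 2 higher in leaf and 1 level (median 0.01, and -0.21 without plate 2), and 3 were higher in each organ with centred libraries. Besides PME17 it held AT1G62770, a pectin methylesterase inhibitor family gene, at 2.18, 6.06 and 3.95 FPKM in leaf and 69.6, 72.4 and 77.1 FPKM in root, and TBL26, of a family that acetylates wall polysaccharides, at 21.6, 4.37 and 12.6 FPKM in leaf and 0.60, 0.73 and 0.69 FPKM in root. In the lipid transfer and wax list 4 of 9 were higher in each organ, with KCS12, a fatty acid elongase, and the lipase AT5G45950 on the leaf side (3.07 and 4.55) and AT4G12520 and AT3G22600 on the root side.

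Genes of nutrient uptake and transport were on both sides. Of 11 nitrogen and potassium genes, 4 were higher in root, 2 higher in leaf and 5 in no class (median -0.66), against 2 in root and 4 in leaf with centred libraries. HRS1, a nitrate-induced repressor, had 1.32, 1.93 and 1.13 FPKM in leaf and 80.3, 85.3 and 68.8 FPKM in root. NRT3.1, the partner protein of the high-affinity nitrate transporters, averaged 7.28 FPKM in leaf and 53.3 FPKM in root. NPF6.4, a nitrate transporter family member of shoots, had 94.96, 40.4 and 54.9 FPKM in leaf and 1.52, 1.76 and 1.15 FPKM in root (4.62 ± 0.26). Of the aquaporins, NIP6-1 was higher in leaf (43.3, 62.4 and 74.99 against 9.14, 7.79 and 8.03 FPKM), TIP2-2 higher in root (77.8, 66.9 and 139 against 340, 311 and 316 FPKM), and PIP2-3 in no class at -0.64 (limma adjusted p = 0.0063), with the opposite sign, 0.24 (adjusted p = 0.198), under centring. CWINV1, the cell wall invertase that splits sucrose, had 6.78, 4.2 and 4.36 FPKM in leaf and 108, 104 and 101 FPKM in root.

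Among enzymes of specialized metabolism, cytochromes P450 and UDP-glycosyltransferases were near the 45.1% of all listed genes higher in root. Of 14 cytochromes P450, 7 were higher in root (50%) and 3 in leaf, or 6 and 5 with centred libraries. Of 11 UDP-glycosyltransferases, 5 were higher in root (45.5%) and 3 in leaf, or 5 and 4 with centred libraries, and of 10 glutathione S-transferases 6 were higher in root, 0 in leaf (1 without plate 3, 2 with centred libraries) and 3 level. GSTU25 had 0.06, 3.06 and 0.18 FPKM in leaf and 54.5, 53.6 and 50.5 FPKM in root, and its neighbour GSTU24 10.6, 94.4 and 30.0 FPKM in leaf and 279, 282 and 256 FPKM in root, with leaf plate 2 above the other leaf libraries in both. Of 7 indolic and glucosinolate genes, 5 were higher in root and 2 level. MYB34, a regulator of indolic glucosinolates, had 14.1, 17.3 and 20.5 FPKM in leaf and 182, 207 and 196 FPKM in root, whereas its relative MYB51 was level (9.21, 19.3 and 8.70 against 8.52, 15.2 and 9.32 FPKM), and NIT2, a nitrilase, had at most 0.71 FPKM in leaf and at least 57.7 FPKM in root. F6'H1, which makes the coumarin scopoletin, had 0.24, 0.06 and 0.12 FPKM in leaf and 114, 119 and 114 FPKM in root (-6.68 ± 0.16).

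Other transcription factors and signalling proteins were on both sides. Of 9 NAC factors 5 were higher in root and 2 level, but 4 were higher in each organ with centred libraries. The NAC factor anac047 had 1.2, 1.34 and 1.75 FPKM in leaf and 28.5, 34.0 and 28.1 FPKM in root. Of 9 MYB and REVEILLE factors 5 were higher in root, 1 in leaf (0 without plate 1) and 3 level, and of 12 AP2/ERF factors 5 were higher in root, 4 in leaf and 3 level, but 1 in root and 5 in leaf with centred libraries. Of 6 WRKY factors 2 were higher in leaf, 1 in root and 3 level, with WRKY22 at 9.26, 22.2 and 8.40 FPKM in leaf and 2.64, 3.76 and 1.76 FPKM in root. WRKY45, the member higher in root (-1.22), was -0.99 without plate 2, and 0 WRKY factors were then higher in root. Of 11 RING-H2 ubiquitin ligases 6 were level, the largest share in any list of 10 or more, with 4 higher in root and 1 in leaf. ATL40 had 1.04, 1.27 and 0.37 FPKM in leaf and 27.4, 28.0 and 25.7 FPKM in root. Of 17 wall-associated and receptor-like kinases 9 were higher in root and 2 in leaf, but 5 and 6 with centred libraries.

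Of 7 calcium sensors and kinases, 4 were higher in root, 2 higher in leaf and 1 level (median -1.45), and 3 were higher in each organ with centred libraries. On the root side, the calmodulin-like CML11 had 2.2, 2.42 and 2.91 FPKM in leaf and 28.8, 27.1 and 26.0 FPKM in root (-3.01), and the kinases CIPK16 and CIPK21 and the calcium pump ACA12 were at -2.73, -2.70 and -1.45. On the leaf side, CIPK20, a kinase bound by calcineurin B-like sensors, had 29.7, 40.9 and 50.1 FPKM in leaf and 0.41, 0.09 and 0.05 FPKM in root, and CML12, a touch-induced calmodulin-like protein, 222, 367 and 227 FPKM in leaf and 35.3, 61.3 and 49.9 FPKM in root. The auxin list held 3 members on each side of 9, with the SAUR gene AT4G38840 at the leaf end and another SAUR gene, AT5G50760, at the root end (0.67, 0.21 and 0.53 against 105, 93.3 and 106 FPKM). Members of a list that lie close together on a chromosome could fall in different classes. GSTU7 (76.2, 103 and 87.1 against 126, 121 and 117 FPKM) was level, while GSTU4 (2.02, 2.90 and 1.64 against 13.0, 13.8 and 11.7 FPKM) and GSTU1 (7.11, 9.46 and 9.18 against 83.8, 88.9 and 75.7 FPKM), less than 15 kb away on chromosome 2, were higher in root. Antisense loci overlap 123 and same-strand loci 24 of the listed genes (PSAD2, GSTU17, BBX32 and BHLH63 among the latter), and the sources disagree on whether the libraries kept the strand, so their reads may be shared.

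Of the 17 genes in both tables, 9 were higher in leaf before flight, 7 without plate 2 and 7 without plate 3, and 13 with centred libraries. Besides AT5G42530 and SKIP20, RAP2-3, an ethylene response factor, had 194, 443 and 504 FPKM in leaf and 55.7, 60.2 and 73.8 FPKM in root (2.47 ± 0.24). ERF107 differed by 1.17 ± 0.26 (limma adjusted p = 0.0038) and by 0.96 without plate 2 and without plate 3. ATL75 differed by 1.49, AT1G78460, a heme-binding SOUL family gene, by 3.43, AT5G54585 by 3.36 and UP6 by 4.89. DREB2A, a drought and heat regulator, had 3.05, 9.46 and 5.49 FPKM in leaf and 15.6, 26.6 and 11.9 FPKM in root (-1.48). APRR9, ELIP2 and ATL8 were level, and MSRB6, BBX29 and OXS3 were in no class, at 0.74, 0.77 and 0.74. CPuORF21, a conserved upstream open reading frame listed as a locus of its own, had 0.05, 15.9 and 26.9 FPKM in leaf and 0.05 FPKM in all 3 root libraries, a value repeated in 8 of its 12 libraries. Its difference of 2.91 (limma adjusted p = 0.0089) rests on leaf plates 2 and 3, and was 2.37 (adjusted p = 0.060) without plate 2 and 2.00 (adjusted p = 0.115) without plate 3.

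**Figure D5:**
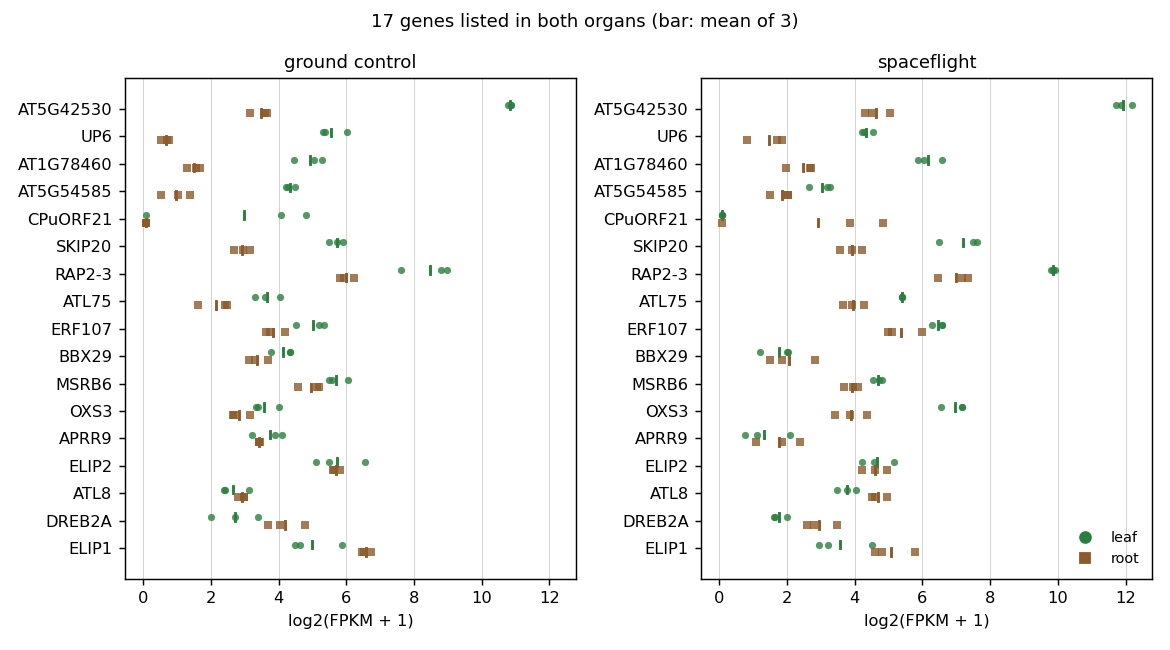
Level, as log2(FPKM + 1), of the 17 genes listed in both organs in each ground control library (left) and each spaceflight library (right); circles are leaf, squares root and bars the mean of 3, with genes ordered by their ground difference. AT5G42530 is first at 7.37 and ELIP1 last at -1.58 on the ground, and CPuORF21 shows the repeated value of 0.05 FPKM.

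Near the thresholds the classes are close to one another. The genes just inside were APRR7 (1.05) and SIB1 (1.06) for leaf and AT1G76590 (-1.0) and AT3G43430 (-1.0) for root, and the genes just outside were AT2G20560 (1.0) and AT2G16870 (-0.97). AT1G76590 was -0.80 without plate 1 and -0.96 without plate 2, AT3G43430 was -0.82 without plate 1, and SIB1 was 0.93 without plate 2. Of the 656 genes, 94 had an adjusted p under 0.05 with less than a 2-fold difference.

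In spaceflight libraries fitted the same way, 223 genes were higher in leaf (34.0%) and 222 higher in root (33.8%), with 58 level. Of the genes higher in leaf, 135 were called in both fits, which is 84.4% of the ground calls and 60.5% of the flight calls. Of the genes higher in root, 199 were called in both, which is 67.2% of the ground calls and 89.6% of the flight calls. Of the 117 genes level on the ground, 51 were higher in leaf and 14 higher in root in flight. Only 2 genes went from leaf to root and 4 from root to leaf. The difference of LHCB2.2 was 7.32 on the ground and 5.16 in flight, that of PR1 4.90 and 7.43, that of HSFA2 2.85 and -0.05, and that of BGLU21 -9.18 and -8.04. The list was chosen by flight response, so a difference between the fits is part of how its genes were chosen.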

How the data were processed

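RNA-seq was done on leaf and root of 3 plates each on the ground and in spaceflight. The deposited FPKM values, used as they stand, were made by the authors with RSEM from STAR alignments to TAIR10, after read quality control in FastQC and trimming in Trimmomatic (versions not given in the sources used here). Before the authors' edgeR comparison of spaceflight with ground, a gene needed more than 5 CPM in 3 or more libraries, and only genes past that comparison were deposited. The deposited mean CPM of the ground libraries served only to check the unit: its ratio to FPKM followed transcript length (across genes, Spearman rho was 0.887 for the 606 genes of the leaf table with a length and 0.927 for 63 of the root table). The tables' own fold changes and p-values for spaceflight were not used. The tables give no counts, which leaves library depth unknown, and counting intervals were not computed.

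Leaf and root were compared with limma 3.58.1 (R 4.3.3) on log2(FPKM + 1), with the plate as a block since both organs were cut from the plants of that plate, and p-values were Benjamini-Hochberg adjusted over 656 genes. Deviations of same-numbered leaf and root libraries correlated at 0.078, 0.45 and 0.31 for plates 1, 2 and 3. Those of differently numbered libraries correlated at -0.421 to 0.16. For leaf plate 1 the value with root plate 3 (0.16) was above that with its own root plate. On simulated data for this comparison over 656 genes, 61 of 68 genes with a true log2 difference of 1.5, 65 of 65 at 2 and 67 of 67 at 4 were called, and 1 of 456 unchanged genes. The simulation gave each gene the same spread in both organs and changed 200 genes, none by less than 1.5. It therefore does not cover genes near the 2-fold threshold or the wider spread of the leaf libraries. Named genes are the 10 largest differences each way, the 8 most abundant level genes, up to 4 members per list with the largest difference, marker genes, genes in both tables, unlike neighbours within a list, and those nearest the thresholds. AT1G15540, MYB51, ICS2, ALD1, EDS5, PER10, PER70, KCS12, CNGC11, CNGC12, UGT83A1, CML12, ACA12, BHLH63, ICL and BBX20 fall outside that rule and were chosen after their values were seen. The members and lists were chosen with earlier results of these data known. Coordinates are those of RefSeq TAIR10.1, which holds 654 of the 656 loci.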

Additional observations from a re-analysis of the deposited data

Results flagged for a closer look

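In the 5 genes given here the leaf minus root difference had one sign on all 3 ground plates and the opposite sign on all 3 spaceflight plates. They are not all the listed genes that did so. SR45A, for example, had 150, 103 and 116 FPKM in leaf and 88.8, 94.4 and 98.6 FPKM in root on the ground. In flight it had 54.0, 52.8 and 51.2 FPKM in leaf and 89.8, 74.9 and 66.9 FPKM in root. These differences between ground and flight were not tested, and the genes had been listed for their flight response. AT2G20560, a DnaJ family co-chaperone, was at 1.0 on the ground (81.6, 53.7 and 59.0 FPKM in leaf, 31.3, 29.3 and 33.6 FPKM in root) and at -0.83 in flight. HSP90-3 was at 0.24 on the ground and -0.79 in flight, and its close copy HSP90-2 at 0.36 and -0.80. AT3G10040, a DNA-binding factor of the low oxygen list, was at -1.39 on the ground and 2.02 in flight. RVE2, of the clock list, was at -1.26 and 0.69.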

How the results depend on the processing

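The number of genes higher in leaf was 160 and became 244 with libraries centred on their median and 106 at a 4-fold threshold, and the number of level genes was 117 and became 179 with a pseudocount of 5 and 38 within 1.5-fold. The fewer genes at 4-fold and within 1.5-fold follow from the stricter limits, and the cause of the other changes was not tested. Leaving out each plate in turn gave 160 to 168 genes higher in leaf, 291 to 297 higher in root and 87 to 112 level. Without the replicate block, so that leaf and root were not paired by plate, there were 158, 295 and 101. No named gene gained or lost a call as higher in 1 organ, but GSTU17 and WRKY26 were no longer level. PIP2-3 turned from -0.64 to 0.24 under centring. Of 164 named genes, 141 were called and 122 of these were called under every alternative tried for single genes. Centring made 12 named genes lose and 10 gain a call, and a pseudocount of 5 made 11 lose it. Counts by list and by table under centring and without each plate were added after seeing the data. FPKM without counts limits what can be said of genes near 0, and 3 plates and a list selected on the same ground libraries limit all comparisons.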
